A study of Mus musculus with 8 samples.

Results

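Thrombospondins are secreted glycoproteins of the extracellular matrix, and CD47 is a cell surface protein that binds thrombospondin-1. The 6 genes described here are the thrombospondin genes Thbs1, Thbs2, Thbs3, Thbs4 and Comp (the gene of cartilage oligomeric matrix protein, also called thrombospondin-5) and the receptor gene Cd47. They are 6 of 24675 genes that had 1 symbol among the 25429 probe sets of the array, and each had 1 probe set. The group was defined by family membership, and it was chosen from these same arrays with differences between the diets already known, so the differences of the 6 genes between diets are given as a description without a test.

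Thrombospondin-1 and thrombospondin-2 form trimers, carry type 1 repeats and restrain blood vessel growth through CD36 on endothelial cells. Thrombospondin-3, thrombospondin-4 and Comp form pentamers, lack those repeats and are best known from skeletal tissue, muscle and tendon. CD47 also binds SIRPα on macrophages and dendritic cells, which restrains the engulfment of the cell that carries it, and in endothelial cells its binding of thrombospondin-1 dampens nitric oxide signalling. Thrombospondin-1 is made by many cells, among them fibroblasts, macrophages, smooth muscle cells and platelet precursors, whereas CD47 is found on nearly every cell.

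Whole subcutaneous tumors of B16-F10, a melanoma cell line of mouse origin, were measured in 4 mice fed HFHCD and 4 mice fed CD. HFHCD is a pro-atherogenic high fat high cholesterol diet with cocoa butter and added cholesterol, and CD is a standard chow. Female mice received either diet for 2 weeks, were injected under the skin of the flank at 9 weeks of age, and their tumors were taken at day 9. Sample titles give HFHCD the name HFD, although no diet but HFHCD and CD is described for these tumors elsewhere. All mice were C57BL/6J, both groups carried the same line, and 1 array of each tumor was available. The diet effect on gene expression in the tumor is the question of the comparison.

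The start regions of the gene that differed most between single tumors (Thbs2) and of the gene that was most even among HFHCD tumors (Cd47) are shown with the motifs found in them. RefSeq windows on build GRCm38.p6, from 250 bases before to 50 bases after the start, were matched for 4 of the 6 genes (Thbs2, Thbs3, Thbs4 and Cd47), and those of Thbs1 and Comp are named only. The Thbs2 window lies at chr17:14694213-14694512 on the minus strand, and the Cd47 window at chr16:49855404-49855703 on the plus strand. Capitals mark matches on either strand to the TATAAA motif, to the GGGCGG motif or to the CCAAT motif.
Thbs2: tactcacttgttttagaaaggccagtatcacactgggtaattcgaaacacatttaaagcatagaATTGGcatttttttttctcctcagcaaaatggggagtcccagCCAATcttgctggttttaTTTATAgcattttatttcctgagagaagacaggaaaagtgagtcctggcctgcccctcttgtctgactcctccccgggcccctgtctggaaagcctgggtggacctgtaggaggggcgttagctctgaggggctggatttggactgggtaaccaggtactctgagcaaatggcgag
Cd47: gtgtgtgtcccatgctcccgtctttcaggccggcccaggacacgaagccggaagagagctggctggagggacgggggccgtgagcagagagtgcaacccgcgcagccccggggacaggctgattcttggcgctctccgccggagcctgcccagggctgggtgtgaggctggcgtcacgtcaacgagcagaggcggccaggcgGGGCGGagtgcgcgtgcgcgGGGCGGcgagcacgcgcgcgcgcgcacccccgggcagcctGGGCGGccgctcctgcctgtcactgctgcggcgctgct

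The windows of these genes differed in base composition. G and C made up 48.3% of the Thbs2 window and 74.0% of the Cd47 window, against a median of 52.7% over 32851 windows of all genes. Thbs2 held TATAAA at position -126 (reverse strand) and CCAAT at positions -186 (reverse strand) and -144, counting the start as 1. Cd47 held GGGCGG at positions -48, -28 and 13. A second, overlapping Cd47 window, at chr16:49855411-49855710 and not printed, held it at positions -55, -35 and 6. Of all windows, 13.6% held TATAAA, 35.7% GGGCGG and 37.4% CCAAT. In the other windows, GGGCGG stood at position -21 of Thbs3 and at positions -89, -51 and -42 of Thbs4, and CCAAT at position -98 of Thbs3. Neither GAAANNGAA (8.56% of all windows) nor a CArG box (1.63%), searched on both strands, was found in the windows of the 4 genes. A match describes these letters only.

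Values are deposited log2 expression levels after RMA, on which a difference of 1 is a doubling. Array medians lay between 5.03 and 5.19. The 4 HFHCD arrays correlated with each other at 0.991 to 0.994 and the 4 CD arrays at 0.974 to 0.99. A gene's SD had a median of 0.136 over HFHCD tumors and 0.197 over CD tumors. The first principal component, with 29.9% of the variance, set CD 1 apart from the other tumors, and the second, with 28.2%, set CD 3 apart, so differences are also given without these. Of all genes, 2141 (8.68%) were called by limma at an unadjusted p under 0.05, 1175 higher (4.76%) and 966 lower (3.91%) in HFHCD tumors, and 0 at an adjusted p under 0.05, where the smallest adjusted p was 0.32. All p-values reflect variation among these 8 tumors, and precision is limited by their number.

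The mean of all 6 genes was lower in HFHCD tumors, and the size ranged from -0.87 for Thbs2 to -0.05 for Comp, with a median of -0.21 beside 0.0024 over all genes. In limma, Thbs1 and Thbs2 were 2 of 6 past the threshold, Thbs2 only just, both lower and 0 higher, beside the 8.68% of all genes called. In 0 of 6 genes did all HFHCD tumors lie below all CD tumors, which 560 genes (2.27%) showed. These counts use the contrast with which the genes were chosen and are not evidence on them.

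**Figure D1:**
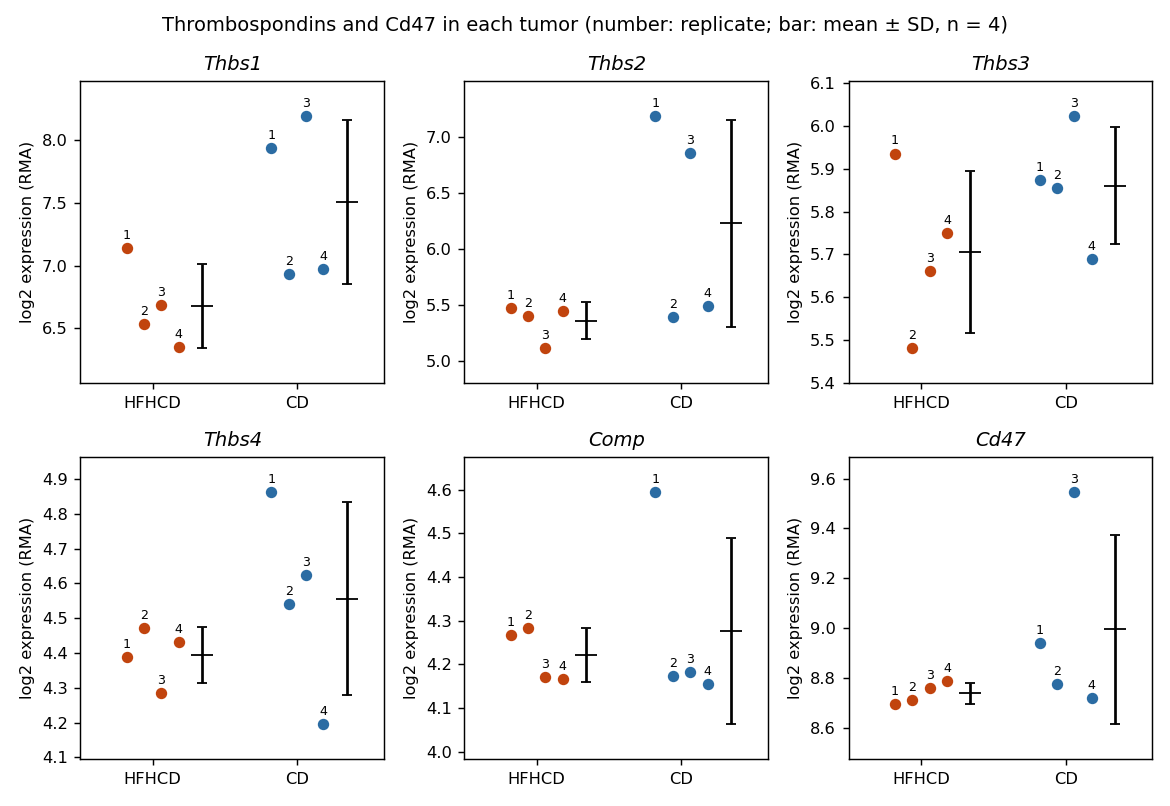
Log2 expression (RMA, vertical axis, a separate scale for each gene) of the 5 thrombospondin genes and Cd47 in 4 HFHCD tumors (orange) and 4 CD tumors (blue), with the replicate number at each point and bars for mean ± SD. CD 1 and CD 3 lie above the other 6 tumors for Thbs1, Thbs2, Thbs4 and Cd47.

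Thbs1, the gene of thrombospondin-1, had log2 values of 7.14, 6.53, 6.69 and 6.35 in HFHCD tumors 1 to 4, against 7.94, 6.93, 8.19 and 6.97 in CD tumors 1 to 4. CD 1 and CD 3 were the highest tumors, and 3 of 4 HFHCD tumors lay below the lowest CD tumor, so the groups overlapped only through HFHCD 1. Means were 6.68 ± 0.34 in HFHCD tumors and 7.51 ± 0.65 in CD tumors (SD, n = 4 each), a difference of -0.83 (standard error 0.30), or 0.563 of the CD level on the linear scale. With CD 1 and CD 3 left out together the difference was -0.27. In whole tumors, fewer cells of a type and less RNA per cell cannot be told apart.

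Thbs2 encodes thrombospondin-2, which restrains vessel growth and is made largely by fibroblasts. Its log2 values were 5.48, 5.40, 5.11 and 5.44 in HFHCD tumors and 7.18, 5.39, 6.85 and 5.49 in CD tumors. Only CD 1 and CD 3 were high, and the other 6 tumors lay between 5.11 and 5.49. Means were 5.36 ± 0.17 in HFHCD tumors and 6.23 ± 0.92 in CD tumors (SD, n = 4 each), with a difference of -0.87 (standard error 0.38). Without CD 1 and CD 3 it was -0.08, without CD 1 alone -0.55, and without CD 3 alone -0.66. The Thbs2 difference between diets rested on those 2 CD tumors. That of Thbs1 shrank without them from -0.83 to -0.27, with HFHCD 1 (7.14) above both CD 2 (6.93) and CD 4 (6.97).

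Thbs3, which encodes a pentameric thrombospondin of developing bone, varied little. It measured 5.94, 5.48, 5.66 and 5.75 in HFHCD tumors and 5.87, 5.85, 6.02 and 5.69 in CD tumors. The highest HFHCD tumor exceeded 3 of the CD tumors, and the difference was -0.15 (standard error 0.12) between means of 5.71 ± 0.19 in HFHCD tumors and 5.86 ± 0.14 in CD tumors (SD, n = 4 each). It was the only 1 of the 6 genes with a larger SD among HFHCD tumors than among CD tumors.

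Thbs4 and Comp, known for roles in tendon, muscle and cartilage, lay below the middle of each array's values. Thbs4 ranked between the 35.0 and 44.6 percentiles and Comp between 33.2 and 40.2. Thbs4 measured 4.39, 4.47, 4.29 and 4.43 in HFHCD tumors and 4.86, 4.54, 4.62 and 4.20 in CD tumors, with means of 4.40 ± 0.08 in HFHCD tumors and 4.56 ± 0.28 in CD tumors (SD, n = 4 each) and a difference of -0.16 (standard error 0.14). The groups overlapped, with CD 1 highest and CD 4 lowest. Comp measured 4.27, 4.28, 4.17 and 4.17 in HFHCD tumors and 4.60, 4.17, 4.18 and 4.15 in CD tumors, with means of 4.22 ± 0.06 in HFHCD tumors and 4.28 ± 0.21 in CD tumors (SD, n = 4 each) and a difference of -0.05 (standard error 0.11). For Comp CD 1 was the high tumor, and the other 7 lay within the range of the HFHCD tumors or just below it. Taking the 40th percentile of all values (4.49) as the level of dim probe sets, Thbs4 exceeded it in 3 arrays and Comp in 1, whereas the other 4 genes exceeded it in all 8. Without CD 1 and CD 3 the differences were 0.03 for Thbs4 and 0.06 for Comp, opposite in sign to those over all tumors.

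Cd47 measured 8.70, 8.71, 8.76 and 8.79 in HFHCD tumors and 8.94, 8.77, 9.55 and 8.72 in CD tumors. CD 3 was the high tumor and CD 1 came next, while the other 6 tumors lay within 8.70 to 8.79. The SD among CD tumors was 9.13 times that among HFHCD tumors, with means of 8.74 ± 0.04 in HFHCD tumors and 9.00 ± 0.38 in CD tumors (SD, n = 4 each). The difference of -0.26 (standard error 0.17) was -0.07 without CD 3, -0.28 without CD 1 and -0.009 without both. Cd47 ranked between the 88.2 and 94.9 percentiles of each array's values, Thbs1 between 63.9 and 84.2, and Thbs2 between 51.1 and 73.3. Such ranks hold within an array and do not order the RNA levels of the genes, since probe sets differ in brightness.

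The highest values of the 6 genes came from the same 2 CD tumors. The highest tumor was CD 1 or CD 3 for 6 of 6 genes, as it was for 38.9% of all genes. Both CD 1 and CD 3 exceeded the other 6 tumors for 4 of the 6 genes (all but Thbs3 and Comp) and for 7.49% of all genes. The SD was larger in CD tumors for 5 of 6 genes and for 69.9% of all genes. Leaving out 1 tumor at a time gave differences of -1.02 to -0.60 for Thbs1, -1.15 to -0.55 for Thbs2, -0.23 to -0.08 for Thbs3, -0.28 to -0.06 for Thbs4, -0.10 to 0.05 for Comp and -0.35 to -0.07 for Cd47. Only Comp changed sign in these, without CD 1.

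**Figure D2:**
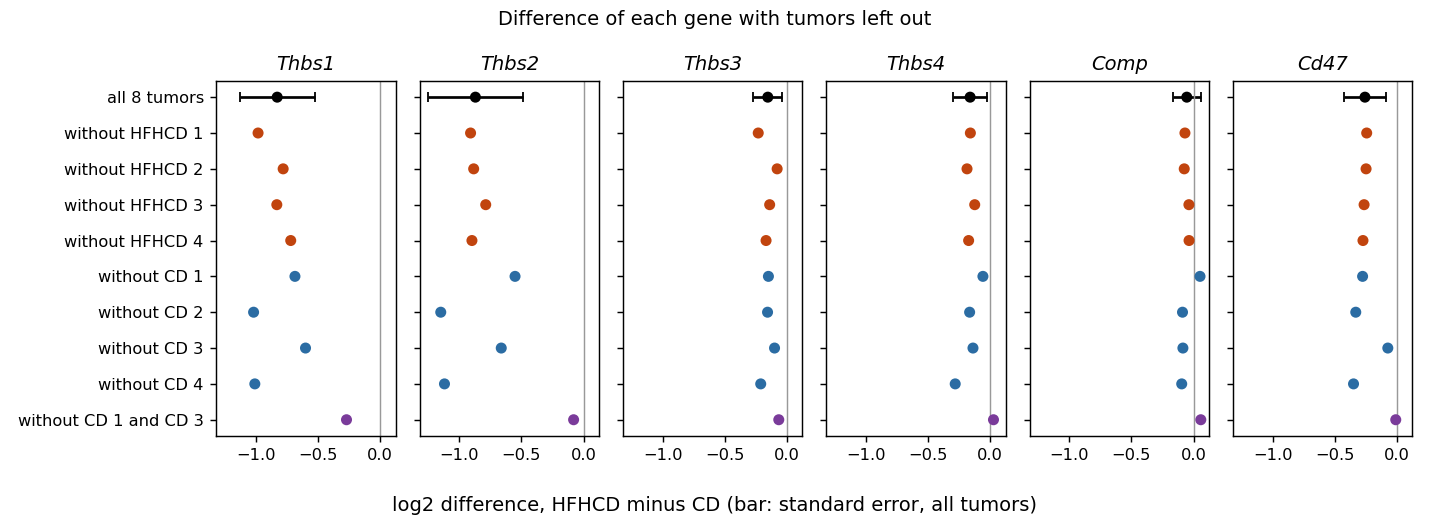
Log2 difference, HFHCD minus CD (horizontal axis), of each gene over all 8 tumors (black, bar for the standard error), without each HFHCD tumor (orange), without each CD tumor (blue) and without CD 1 and CD 3 together (purple). Thbs1 was -0.27 and Thbs2 -0.08 in the last row.

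Fibroblast, macrophage and skeletal muscle markers were highest in the same 2 tumors. The mean over 18 fibroblast markers was 5.57 to 5.70 in HFHCD tumors and 6.92, 6.13, 7.22 and 6.11 in CD tumors 1 to 4, with 13 called lower and 0 higher in HFHCD tumors. The mean over 14 macrophage markers was 5.83 to 6.45 in HFHCD tumors and 7.54, 6.48, 7.78 and 6.36 in CD tumors, with 9 called lower and 0 higher. The mean over 16 skeletal muscle markers was 5.20 to 5.66 in HFHCD tumors and 6.98, 6.02, 7.21 and 5.54 in CD tumors, with 11 called lower and 0 higher. CD 1 and CD 3 were thus the highest tumors for Thbs1, Thbs2, and fibroblast, macrophage and muscle markers. In CD 2 and CD 4 the fibroblast mean also exceeded every HFHCD tumor. Thbs2 there, at 5.39 and 5.49, was about level with HFHCD tumors (5.11 to 5.48). So was the macrophage mean in CD 2 and CD 4, at 6.48 and 6.36 (HFHCD 5.83 to 6.45). The muscle mean exceeded every HFHCD tumor in CD 2 (6.02) but not in CD 4 (5.54). The part of fibroblasts, macrophages and muscle in the values of the 6 genes was not tested.

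Fewer markers were called among other cells that make or bind thrombospondins. The mean over 14 endothelial markers was 6.00 to 6.26 in HFHCD tumors and 6.06 to 6.38 in CD tumors, with 1 called lower (Pecam1, the gene of CD31). Of 12 pericyte and smooth muscle markers, Myh11, a smooth muscle myosin, was called lower and Abcc9, a channel subunit of pericytes, higher. The 10 platelet and megakaryocyte markers had means of 4.32 to 4.55 in HFHCD tumors and 4.26 to 4.64 in CD tumors. Of these 10, 1 was called higher (Gp9, a platelet glycoprotein) and 0 lower, and 5 had a mean over all tumors above the dim level. Of 13 cartilage and tendon markers, whose means were 4.93 to 5.10 in HFHCD tumors and 4.95 to 5.12 in CD tumors, only Tnmd was called, lower. Melanocyte lineage markers, 12 in all, averaged 11.03 to 11.13 in HFHCD tumors and 10.84, 11.04, 10.86 and 10.96 in CD tumors, so the melanoma label held in every tumor, with the lowest means in CD 1 and CD 3. Of these 12 markers, 3 were called higher (Oca2, Mc1r and Trpm1) and 0 lower.

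Adipocyte markers were also highest in CD 1 and CD 3, and keratinocyte markers in CD 3 but not in CD 1. The mean over 7 adipocyte markers was 4.74 to 5.06 in HFHCD tumors and 5.32, 4.98, 5.58 and 4.86 in CD tumors, with CD 1 and CD 3 highest as for Thbs1 and Thbs2, and 2 were called lower and 0 higher (median difference -0.28). The mean over 10 keratinocyte markers was 4.74 to 5.49 in HFHCD tumors and 5.22, 5.89, 7.02 and 4.86 in CD tumors, with CD 3 highest, and 1 was called lower and 0 higher (median difference -0.61). Of 4 red blood cell markers 0 were called by limma at an unadjusted p under 0.05. The mean over the 8 tumors exceeded the dim level for 0 of the 4. The part of these cells in the values of the 6 genes was not tested either.

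**Figure D3:**
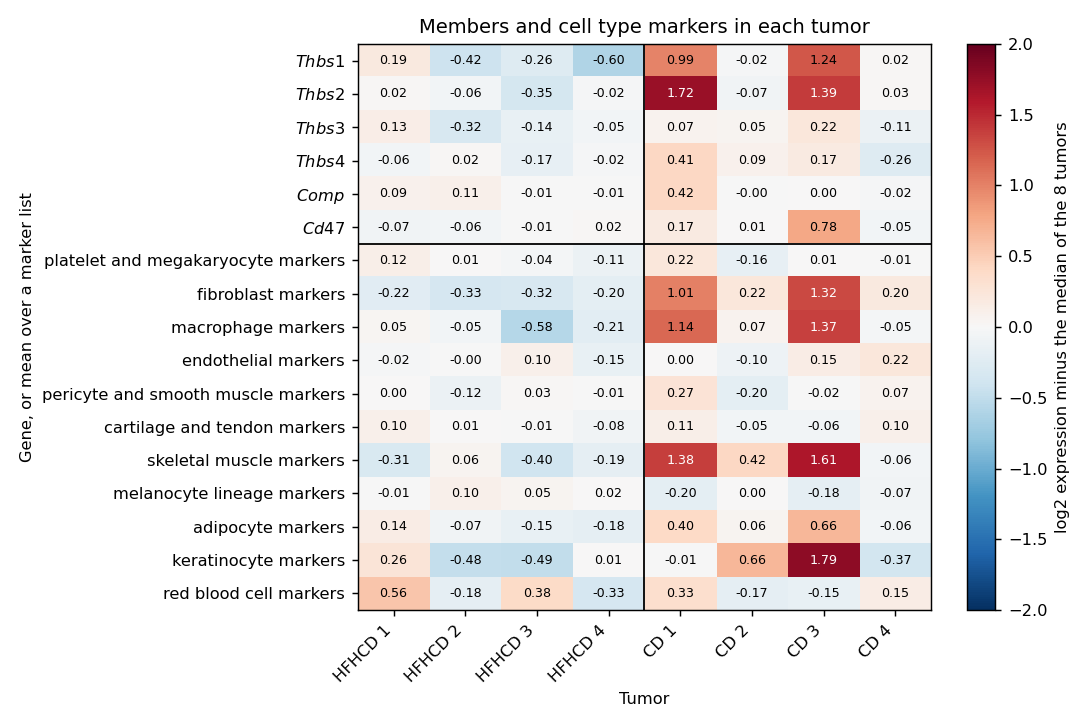
Log2 expression minus the median of the 8 tumors (color scale and printed value) for the 6 genes and for the mean over each list of cell type markers (rows) in each tumor (columns, HFHCD left of the line and CD right of it). The CD 1 and CD 3 columns are raised for Thbs1, Thbs2, fibroblast, macrophage and skeletal muscle markers.

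Genes around the thrombospondins were followed in 7 lists with 138 measured genes, of which 4 were called higher, 20 lower and 114 were not called by limma at an unadjusted p under 0.05. Calls to the lower side thus made up 20 of 138, beside 3.91% of all genes, and calls to the higher side 4 of 138, beside 4.76%. The median difference was -0.09, beside 0.0024 over all genes, and 0 passed an adjusted p of 0.05 (smallest adjusted p 0.41). Some genes belong to more than 1 list, and these count once in the 138. The lists were chosen with earlier results of these data known, so these counts are not evidence on them. Col1a1, Col1a2, Col5a1, Dcn and Postn are among the 20 and also among the fibroblast markers above.

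Of 17 surface receptors of thrombospondins, 2 were lower, 0 higher and 15 were not called (median difference -0.14). Cd36, the receptor through which the type 1 repeats act on endothelial cells and also a fatty acid transporter and scavenger receptor, measured 6.51, 6.60, 6.48 and 6.40 in HFHCD tumors and 7.34, 6.98, 7.56 and 6.60 in CD tumors. All CD tumors but CD 4 lay above every HFHCD tumor, and the difference was -0.62 (standard error 0.19, adjusted p = 0.462 by limma). Itgb5, the β5 integrin chain, differed by -0.30 (standard error 0.13, adjusted p = 0.547), and by -0.23 without CD 1 and CD 3, where it was not called. Itga6, the α6 integrin chain, had a difference of -0.31, and Calr, whose product calreticulin joins thrombospondin-1 to LRP1 at the cell surface, of -0.16, and neither was called. Without CD 1 and CD 3 the calls were 6, all lower (Cd36, Itgav, Itga4, Itga6, Calr and Jag1), with Cd36 alone called in both fits. The Cd36 difference was -0.29 there, smaller than the -0.62 over all tumors and close to the threshold.

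Of 16 genes of SIRP proteins and of CD47 signalling, 0 passed the unadjusted threshold in limma, the smallest adjusted p was 0.645 and the median difference -0.08. Sirpa, the gene of the phagocyte receptor for CD47, was looked up after its values were seen and measured 9.47 to 9.68 in HFHCD tumors and 9.18 to 9.75 in CD tumors, a difference of 0.03 (standard error 0.13, adjusted p = 0.977). Unlike Cd47, it was lowest in CD 1. Kdr, the VEGF receptor 2 with which CD47 associates in endothelial cells, had a difference of -0.37, which was -0.20 without CD 4 and -0.53, with a call, without CD 1. Fyb, an adaptor that acts downstream of SIRPα in macrophages, had a difference of -0.77, with a single high value of 7.76 in CD 3 against 5.17 to 5.67 in the other 7 tumors. Gucy1a1, a subunit of the nitric oxide receptor, and Sirpb1b, a SIRP family gene, lay below the dim level in every tumor and had differences of -0.16 and -0.28. Without CD 1 and CD 3, 2 genes were called, both lower (Ptpn11 and Kdr).

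Of 25 matrix and protease partners of thrombospondins, 7 were lower, 1 was higher and 17 were not called (median difference -0.13). Dcn, the gene of decorin, a collagen-binding proteoglycan, measured 4.95, 4.80, 4.62 and 4.69 in HFHCD tumors and 8.13, 6.31, 7.94 and 5.55 in CD tumors. Every HFHCD tumor lay below every CD tumor, and the difference was -2.22 (standard error 0.51, adjusted p = 0.423 by limma). Col1a1, a chain of type I collagen, differed by -1.82 (standard error 0.46), and Fn1, fibronectin, by -0.87 (standard error 0.23), both without overlap between the groups and with adjusted p = 0.423. Dcn, Col1a1, Col1a2, Col5a1 and Fn1 were also called lower without CD 1 and CD 3, at smaller differences of -1.17 for Dcn, -1.08 for Col1a1 and -0.64 for Fn1, whereas the calls of Mmp2, a protease cleared with thrombospondin-2 through LRP1, and of Lox, a collagen cross-linking enzyme, were not made there.

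The gene called higher in that list was Vegfa, whose product VEGF-A drives vessel growth and is bound by thrombospondin-1. It measured 10.40, 9.89, 10.22 and 9.88 in HFHCD tumors and 8.94, 8.90, 9.43 and 9.83 in CD tumors. Every HFHCD tumor exceeded every CD tumor, by a small margin over CD 4, and the difference was 0.82 (standard error 0.22, adjusted p = 0.423 by limma). The group means of Thbs1 and Vegfa differed in opposite directions. Within HFHCD tumors both were highest in HFHCD 1 and lowest in HFHCD 4, though Vegfa was almost level in HFHCD 2. Among CD tumors Vegfa was highest in CD 4 and Thbs1 in CD 3. Vegfa was still called, at 0.73, without CD 1 and CD 3.

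Of 19 other matricellular proteins, which like thrombospondins sit in the matrix and signal to cells, 4 were lower, 1 was higher and 14 were not called (median difference -0.11). Postn, the gene of periostin, made by activated fibroblasts, measured 6.19, 6.30, 6.18 and 6.33 in HFHCD tumors and 7.82, 7.14, 8.39 and 6.90 in CD tumors. No value overlapped, and the difference of -1.31 (standard error 0.28) had the smallest adjusted p of the 7 lists, 0.41 by limma. Tgfbi, a TGF-β-induced matrix protein, differed by -1.15 (standard error 0.34, adjusted p = 0.451). Tnc, tenascin-C, differed by -1.11 (standard error 0.38, adjusted p = 0.488), and Ogn, the proteoglycan osteoglycin, by -1.38 (standard error 0.54, adjusted p = 0.529), and without CD 1 and CD 3 they differed by -0.47 and -0.26 and were not called. In that fit Postn and Tgfbi were still called lower, at -0.77 and -0.70. In Ogn, CD 1 and CD 3 measured 6.73 and 6.26, the same 2 high tumors as for Thbs2. HFHCD tumors measured 3.82 to 4.07, and CD 2 and CD 4 measured 4.45 and 4.05, all below the dim level. The call to the higher side was Tnn, tenascin-N, with a difference of 0.26.

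Few genes of other type 1 repeat proteins were called. Of 36 other genes whose proteins carry these repeats, 1 was lower, 0 were higher and 35 were not called, with a median difference of -0.02. The gene called was Spon1, spondin-1, a matrix protein first known from the nervous system. It differed by -0.40 (standard error 0.15, adjusted p = 0.528 by limma) and exceeded the dim level only in CD 1 and CD 3. Without CD 1 and CD 3 it differed by -0.12 and was not called. In that fit 2 genes of the list were called, both higher (Adgrb2 and Ccn5). Adamts5, an aggrecan-cleaving protease, had a difference of -0.35, Ccn4, a matricellular protein of the CCN family, of -0.18, and Adgrb3, an adhesion receptor of neurons that was dim in every tumor, of -0.16. None of the 3 was called.

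Of 23 other endogenous inhibitors of vessel growth, 5 were lower, 2 were higher and 16 were not called (median difference -0.11). Cxcl10, an interferon-induced chemokine that also restrains vessel growth, measured 7.78, 8.48, 7.49 and 8.01 in HFHCD tumors and 8.93, 8.99, 9.64 and 8.49 in CD tumors. HFHCD 2 lay just under CD 4 and the groups did not overlap, and the difference was -1.07 (standard error 0.26, adjusted p = 0.423 by limma). Cxcl9, a related chemokine, differed by -1.77 (standard error 0.56, adjusted p = 0.466), and Col4a1, a basement membrane collagen chain whose fragment arresten inhibits vessel growth, by -0.78 (standard error 0.20, adjusted p = 0.423). Calls among the inhibitors went both ways. Timp3, a metalloproteinase inhibitor that blocks VEGF receptor 2, was higher by 0.53 (standard error 0.20, adjusted p = 0.505), as was Serpinf1, the gene of PEDF, by 0.46. Without CD 1 and CD 3 the difference was -1.16 for Cxcl9 and 0.43 for Timp3, and neither was called in that smaller fit.

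Of 15 regulators described for Thbs1, 1 was lower, 0 were higher and 14 were not called, with a median difference of -0.008. Egr1, an immediate early transcription factor, measured 4.81, 5.29, 5.30 and 4.78 in HFHCD tumors and 5.32, 5.40, 6.02 and 5.46 in CD tumors, a difference of -0.51 (standard error 0.19, adjusted p = 0.505 by limma). The groups did not overlap, though CD 1 exceeded the highest HFHCD tumor by little, and without CD 1 and CD 3 the difference was -0.39 and was not called. Myc and Id1, described as repressors of Thbs1, had differences of -0.25 and -0.29, and neither was called. Mir17hg, the host transcript of a microRNA cluster that targets Thbs1, had a difference of 0.41 and was not called, but it was called higher under median centring, quantile and cyclic loess normalization, with differences of 0.42, 0.42 and 0.39. Myc was called lower without CD 1 and CD 3, as was Smad3, a transducer of TGF-β signals. Tgfb1, the gene of the latent cytokine that thrombospondin-1 can activate, had a difference of 0.04.

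**Figure D4:**
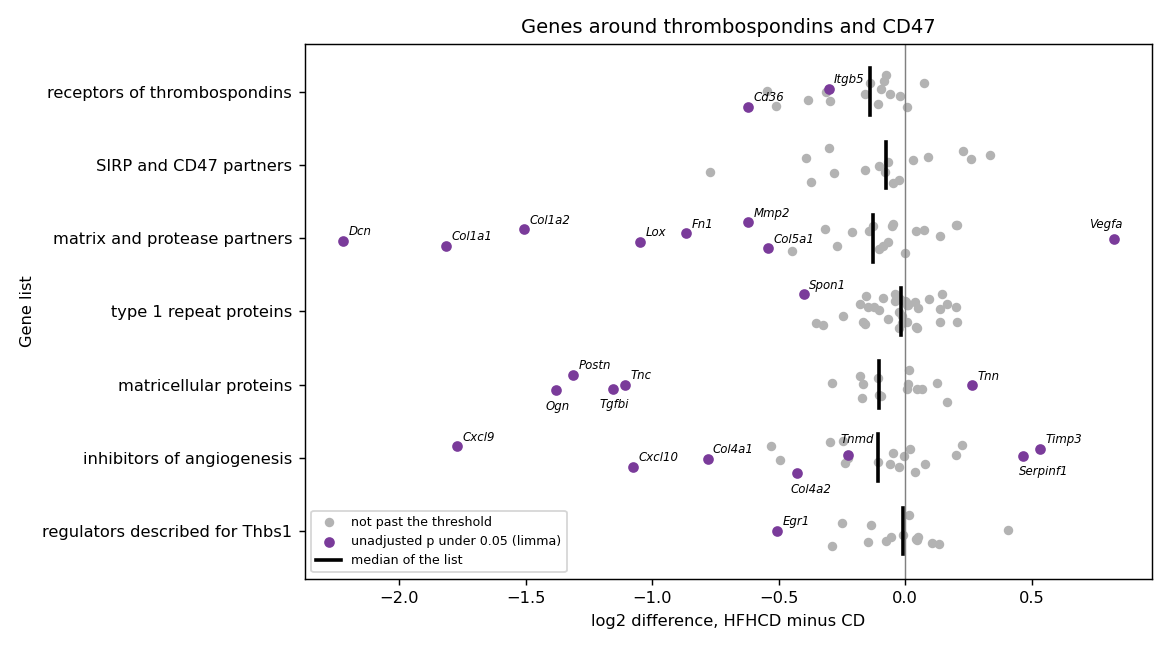
Log2 difference, HFHCD minus CD (horizontal axis), of the genes in the 7 lists (rows). Points are genes, purple where limma gave an unadjusted p under 0.05, and black bars are the median of each list, from -0.14 for receptors to -0.008 for regulators.

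The genes most like each of the 6 in their deviations from the diet means were found by Pearson correlation over 8 tumors among 13042 genes above the dim level, as a description over tumors that share CD 1 and CD 3. Thbs1 was most like Tnfaip8l2 (0.991), Tmod4 (0.984) and Scarna9 (0.983). Thbs2 was most like Cdh24, a cadherin (0.993), Folr2, a folate receptor of tissue macrophages (0.990), and Tnnc2, the fast muscle troponin C (0.988). Cd47 was most like Fli1, a transcription factor of endothelial and blood cells (0.995), Igkc, the κ light chain constant region (0.981), and Ikzf1, a lymphoid transcription factor (0.981). The B cell and lymphoid genes Igkc and Ikzf1 were high in CD 3 alone, at 7.96 and 5.55. Ikzf1 measured 4.34 to 4.49 in all other tumors, at or under the dim level. The search asked for a mean above that level, which Ikzf1 had only through CD 3, also the highest tumor for Cd47. Without CD 1 and CD 3 the likeness of Thbs2 to Tnnc2 was 0.636, and that of Cd47 to Igkc 0.589 and to Ikzf1 0.632, whereas that of Thbs1 to Tnfaip8l2 was 0.972 and that of Cd47 to Fli1 0.962 over 6 tumors.

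Thbs4 was most like Myl1, a fast muscle myosin light chain (0.984, and 0.956 without CD 1 and CD 3), Cfap70 (0.970) and Ereg, epiregulin (0.967). With the mean of the skeletal muscle markers, which include Myl1, Thbs4 correlated at 0.840 over 8 tumors and 0.924 over 6. With the pericyte and smooth muscle mean it correlated at 0.247 over 8 tumors and -0.945 over 6. With the endothelial mean it correlated at -0.558 and -0.888. Thbs4 exceeded the dim level in only 3 arrays, which limits these values. Comp was most like Cnbp (0.997), Spcs2-ps (0.994) and Pcmt1 (0.993), each with its highest value in CD 1, and Thbs3 was most like Mbtd1 (0.971), Cxcl11 (0.961) and Celsr1 (0.948).

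The likeness of Thbs1 to Thbs2 and to Cd47 was not kept without CD 1 and CD 3, and that to Thbs3 changed less. The correlation of Thbs1 and Thbs2 was 0.841 over 8 tumors and 0.115 without CD 1 and CD 3, and that of Thbs1 and Cd47 was 0.711 and -0.666. For Thbs1 and Thbs3 it was 0.656 and 0.594. Cd47 spanned only 0.09 over those 6 tumors, and HFHCD 1 was the highest HFHCD tumor for both Thbs1 and Thbs3, which limits these values. With the fibroblast marker mean, Thbs1 correlated at 0.887 over 8 tumors and 0.135 over 6, and Thbs2 at 0.923 and 0.593. With the macrophage marker mean, Thbs2 correlated at 0.938 over 8 tumors and 0.845 over 6, and Thbs1 at 0.881 and 0.316. Of the 11 marker lists, Thbs1 was closest to the adipocyte mean, at 0.958 over 8 tumors and 0.850 over 6. Over 6 tumors it also correlated at 0.883 with the red blood cell mean, whose markers were all dim, and at 0.798 with the platelet mean, against 0.416 and 0.713 over 8.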

How the data were processed

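Total RNA of whole B16-F10 tumors, 4 from HFHCD mice and 4 from CD mice, was measured on Affymetrix MouseGene2.0ST arrays. The deposited values are log2 levels that the authors made before deposit, and the submitters' notes name RMA and Affymetrix Expression Console for it. RMA subtracts background, equalises the distribution of probe values between arrays and summarises each probe set. Tool versions and the definition of probe sets were not given in the sources used here. Equalised distributions can hide a shift of all genes, and sensitivity to low RNA is limited by background. The deposited log2 values ran from 2.22 to 14.05. Groups and replicate numbers came from the sample titles. Of 25429 probe sets, 24675 had 1 symbol in the platform annotation, 0 had several and 754 were not named here.

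The diets were compared in R 4.3.3 with limma 3.58.1 (lmFit, eBayes) over all 8 arrays, with no covariate and no level filter. A gene counted as called below an unadjusted p of 0.05, which the methods also used. Adjusted p-values are Benjamini-Hochberg values over the 24675 genes. The members, the 7 lists of related genes and the marker lists were chosen with earlier results of these data known. The genes named are the 6 members and the 4 genes with the smallest p in each list. Also named are the 3 genes most like each member in Pearson correlation. Predicted genes, microRNA, small nucleolar RNA and olfactory or vomeronasal receptor genes were left out of the correlation search by gene name, which kept Scarna9. Other genes were named after their values were seen. Alternatives were other scalings, array weights, a trended and robust prior, the methods' t-test, a filter on dim genes, all probe sets, the replicate number as a block, and leaving out tumors. The fit was tested on simulated data. Motifs were counted in RefSeq promoter windows. Counts and plots were made in Python 3.11.15 (scipy 1.17.1, matplotlib 3.10.9).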

Additional observations from a re-analysis of the deposited data

Results flagged for a closer look

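In groups of 4 tumors, the gap from the highest or lowest tumor to its nearest neighbour was divided by the range of the group and set against Dixon's critical value for 4 samples. Of 126 groups examined, 12 had such a tumor, and chance flags about 1 in 20 groups. These groups include genes picked because they follow 1 of the 6 genes (Tmod4, Cnbp, Spcs2-ps, Pcmt1, Igkc and Ikzf1 among the 12), so the count is no test of a pattern. Of the 6 genes, only Comp had one, CD 1, with a share of 0.935. CD 1 also stood apart in Adgrb3 (0.837), Id1 (0.848), Cnbp (0.933), Spcs2-ps (0.953) and Pcmt1 (0.91). CD 3 stood apart in Fyb (0.936), Fn1 (0.919), Igkc (0.8293) and Ikzf1 (0.916). Among HFHCD tumors, HFHCD 3 stood apart in Col1a1 (0.870), as its lowest value, and HFHCD 1 in Tmod4 (0.893), as its highest. The 4 CD values of Thbs1, Thbs2 and Cd47 gave no such tumor, and in Thbs1 and Thbs2 both CD 1 and CD 3 were high.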

How the results depend on the processing

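All 6 differences kept a negative sign under median centring, quantile and cyclic loess normalization, and under array weights all but Comp did, where the difference was -0.419 for Thbs2, -0.0566 for Thbs4 and -0.154 for Cd47. With CD 1 and CD 3 left out together, the difference was -0.272 for Thbs1 and -0.0805 for Thbs2. Array weights gave 1928 genes called higher and 1582 lower over all genes, leaving out CD 1 and CD 3 gave 1810 and 1776, and the filter on dim genes gave 635 lower. Leaving out 1 tumor at a time gave 839 to 1942 genes called higher and 632 to 1767 lower, with the most in both directions without CD 1. The methods' t-test called 1 gene of the 7 lists higher and 14 lower, without Itgb5, Spon1, Tnc, Ogn, Timp3 and Egr1, and leaving out 1 tumor gave 1 to 5 higher and 14 to 27 lower. Of all genes, 1878 passed the methods' t-test unadjusted and 0 after adjustment. Whether the limma calls of Thbs1 and Thbs2 held under that t-test or the other alternatives was not recorded.

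With CD 1 and CD 3 left out, 4 genes of the 7 lists were called higher and 20 lower, the same counts as over all tumors, but only 13 genes were called in both fits. Of the genes named from the lists, Itgb5, Spon1, Tnc, Ogn, Cxcl9, Timp3 and Egr1 lost their calls there, in a fit with 2 fewer tumors. With 1 tumor left out, the calls of Cd36, Dcn, Col1a1, Fn1, Vegfa, Postn, Tgfbi, Cxcl10, Col4a1 and Cxcl9 held in every case. The call of Itgb5 was lost without CD 3 (-0.195), CD 4, HFHCD 1, HFHCD 2 or HFHCD 3 (-0.364 to -0.195 over the 8 omissions, and likewise for the ranges that follow), of Spon1 without CD 1, CD 3, HFHCD 1 or HFHCD 3 (-0.497 to -0.279), and of Tnc without HFHCD 3 (-0.913), while without CD 3 Tnc differed by -0.735. Ogn lost its call without CD 1, CD 3 or any HFHCD tumor (-1.82 to -0.927), Timp3 without CD 1, CD 2, HFHCD 3 or HFHCD 4 (0.387 to 0.657), and Egr1 without CD 3, HFHCD 1 or HFHCD 4 (-0.591 to -0.349).

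The tumors share only a number across diets. Deviations from the group means correlated at 0.269, -0.0293, -0.265 and 0.0507 between tumors of the same number, and 1 HFHCD array correlated best with its own number. Mir17hg was also called higher with array weights, with the replicate block, and without CD 1, HFHCD 3 or HFHCD 4. A fit with the replicate block called 1110 genes higher and 981 lower, and 5 and 24 in the 7 lists, and left the differences as they were. Thbs4 and Comp lay at or under the dim level in most arrays, which limits what their values show.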
